A study of Mus musculus with 6 samples.

Results

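The enzymes of the methionine cycle and of homocysteine remethylation are described here by the H3K9ac signal at their genes in mouse lung endothelial cells. The genes are Mat2a, Mat2b, Ahcy, Ahcyl1, Mtr and Mtrr, taken by function. Every peak that the deposited table assigns to one of these 6 symbols was used, at promoters and away from them. That gave 10 of 17901 peaks, with at least 1 for every gene. All 10 passed the filter on low counts. H3K9ac, an acetylated form of histone H3, marks active promoters and enhancers. It was profiled by CUT&RUN, in which a nuclease cuts out the DNA under an antibody-bound protein for sequencing.

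The study compared 3 WT libraries, labelled Cre-negative, with 3 CSE-KO libraries, labelled Cre-positive. CSE is cystathionine gamma-lyase, encoded by Cth. The promoter that drives Cre, the age of the mice, and whether a library came from 1 animal are not stated in the labels, so the p-values speak to the spread between libraries, which may be technical. Fewer cells that carry the mark and less of the mark per cell cannot be told apart in these bulk samples.

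In the methionine cycle, methionine adenosyltransferase joins methionine to ATP and makes S-adenosylmethionine (SAM), the methyl donor of most methylation reactions. Each methyl transfer leaves S-adenosylhomocysteine, which is split into adenosine and homocysteine. Homocysteine is either methylated back to methionine or drawn into transsulfuration, where CSE makes cysteine. Remethylation and transsulfuration thus draw on the same homocysteine. Mat2a encodes the catalytic and Mat2b the regulatory subunit of the methionine adenosyltransferase found outside the liver. Ahcy encodes the hydrolase of S-adenosylhomocysteine, and Ahcyl1 encodes IRBIT, a protein related to it in sequence that binds the IP3 receptor. Mtr encodes methionine synthase, which takes its methyl group from folate and needs cobalamin, and Mtrr the reductase that restores its cobalamin cofactor.

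Total counts over the peaks were 313610 to 676056 in WT and 679938 to 1173016 in CSE-KO libraries, so the CSE-KO libraries were all deeper than the WT ones. WT replicate 2 was the shallowest and CSE-KO replicate 1, with 1173016 counts, the deepest. Of 15 endothelial marker genes 14 had a peak. Their level summed over 40 peaks was 2906 to 3122 CPM (reads in the peak per 1e+06 counts of TMM-adjusted library size) in WT and 2683 to 2994 in CSE-KO. Of 12 leukocyte markers, Ptprc among them, 0 had a peak. Of 12 epithelial markers 5 had one, namely Epcam, Cdh1, Krt8, Krt18 and Scgb1a1 (320 to 350 CPM in WT, 290 to 332 in CSE-KO, summed over 10 peaks). The others, Sftpc and Nkx2-1 among them, had none. Of 10 fibroblast and smooth muscle markers 1, Col1a1, had a peak (32.3 to 46.0 CPM in WT, 21.9 to 50.8 in CSE-KO).

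The start of Mat2a lies under a peak that the table assigns to another gene. The peak at chr6:72438343-72439768 (GRCm38, as are all coordinates here) is annotated as an exon of Particl, a long noncoding RNA gene whose RefSeq span (chr6:72438683-72440615) overlaps the first bases of Mat2a. It covers the Mat2a start, while the peaks that carry the symbol Mat2a lie upstream in intergenic DNA. CUT&RUN reads have no strand of origin, so signal of the genes cannot be told apart. This peak is outside the rule for the members, was chosen after its values were seen, and is described beside them.

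Of the other members, Mat2b, Ahcyl1, Mtr and Mtrr had a peak that covers a RefSeq start. The Ahcy peak lies just inside the gene, and covers 11 bp of the 300 bp window from 250 bp before to 50 bp after its start. All 6 genes were found in the RefSeq promoter table, with 9 such windows. The windows held 13 to 46 CpG dinucleotides each, against a median of 7 over 32851 mouse windows. The GC box letters GGGCGG, searched like all motifs on both strands with overlaps allowed, were in a window of all 6 genes (35.7% of mouse windows), and the CCAAT box letters CCAAT in windows of all but Ahcyl1 (37.4%). CCGGAAG, the core of ETS factor sites, was found at Mat2b alone (8.86%). The E-box CACGTG (7.15% of windows), the NRF1 letters GCGCATGCG (1.75%), the CEBP-ATF letters TGATGCAA (0.895%), the AP-1 letters TGACTCA (5.2%) and the YY1 letters AAGATGGCG (1.4%) were in none of the member windows. The shares are per window, while a gene with several windows was counted if any of them held the letters. Of the Ahcyl1 windows, the one at chr3:107696007-107696306 held none of the motifs. A match is a description of the letters, not a bound site.

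The RefSeq sequence of 250 bases before the start, 5' to 3' on the minus strand of GRCm38.p6, is shown for the SAM synthase pair and for Ahcyl1. The first ends just before the Mat2a start, inside the RefSeq span of Particl, and the second lies under the member peak with the highest count. The last belongs to the member symbol with the largest difference between groups. That difference was at a peak 10.1 kb upstream and not at the sequence shown. Capitals mark GC box and CCAAT letters on either strand. The stretches are chr6:72439557-72439806 for Mat2a, chr11:40692683-40692932 for Mat2b and chr3:107696561-107696810, before the outermost of the Ahcyl1 starts.
Mat2a: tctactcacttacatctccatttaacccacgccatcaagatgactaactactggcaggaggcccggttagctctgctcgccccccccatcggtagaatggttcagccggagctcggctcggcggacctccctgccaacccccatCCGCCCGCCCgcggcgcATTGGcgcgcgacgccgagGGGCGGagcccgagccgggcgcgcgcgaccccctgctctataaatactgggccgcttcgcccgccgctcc
Mat2b: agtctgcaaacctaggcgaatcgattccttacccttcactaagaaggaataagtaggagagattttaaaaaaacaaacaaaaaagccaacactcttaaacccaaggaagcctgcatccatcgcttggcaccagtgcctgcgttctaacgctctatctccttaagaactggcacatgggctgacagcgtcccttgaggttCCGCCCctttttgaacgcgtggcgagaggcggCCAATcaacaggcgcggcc
Ahcyl1: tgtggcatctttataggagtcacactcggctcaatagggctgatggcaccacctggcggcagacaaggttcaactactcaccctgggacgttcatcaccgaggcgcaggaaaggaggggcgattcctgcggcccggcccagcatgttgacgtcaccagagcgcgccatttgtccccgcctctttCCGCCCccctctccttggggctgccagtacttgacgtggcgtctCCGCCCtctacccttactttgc

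None of the 10 member peaks passed the test between CSE-KO and WT, and on 1 of them, upstream of Ahcyl1, the groups did not overlap. With edgeR, 0 of 10 had an adjusted p under 0.05, as against 0.0868% of all 16134 tested peaks, and 1 of 10 had an unadjusted p under 0.05, as against 7.08%. The Wald test of DESeq2 called 0 of 10, with 1 at an unadjusted p under 0.05, beside 7 and 566 of 16134 peaks. With voom 0 of 10 were called and 2 had an unadjusted p under 0.05, beside 13 and 1250 of 16134 peaks. The groups did not overlap at 13.0% of all tested peaks. Of the member peaks 6 lay below 0, as did 50.1% of all peaks. Their log2 fold changes ran from -1.08 to 0.27 with a median of -0.07, beside -0.00034 over all peaks. The median size of the change, sign aside, was 0.12 for the members and 0.22 over all tested peaks.

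**Figure D1:**
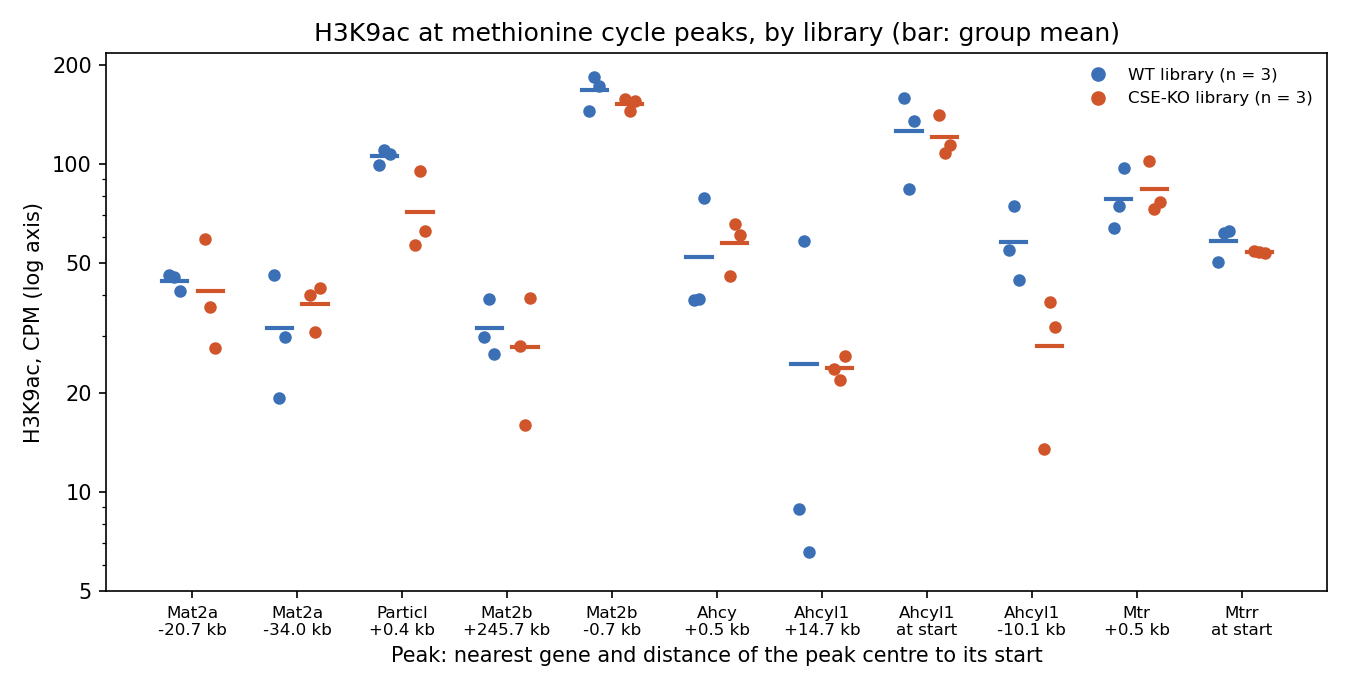
H3K9ac in CPM (log axis) at the 10 member peaks and at the Particl peak over the Mat2a start, 1 point per library and a bar at each group mean (n = 3 per group). The CSE-KO points lie below the WT points at the Ahcyl1 peak 10.1 kb upstream and at the Particl peak, and the groups overlap at all others.

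**Figure D2:**
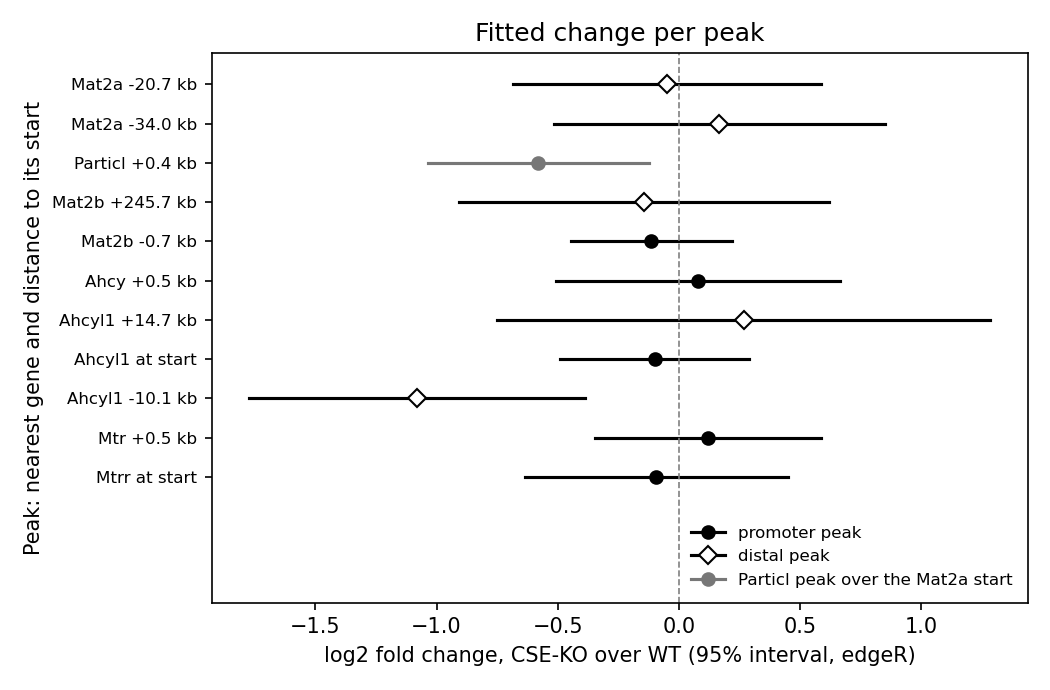
Log2 fold change of CSE-KO over WT for the same peaks with 95% intervals from edgeR, promoter peaks as filled circles and distal peaks as open diamonds. The interval leaves out 0 at the Ahcyl1 peak 10.1 kb upstream (-1.08) and at the Particl peak (-0.58), before any adjustment for the number of peaks.

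For SAM synthesis, the first step of the cycle, no peak that carries the Mat2a symbol covers its start. At the Particl peak over the Mat2a start the level was 99.4, 110 and 107 CPM in WT replicates 1 to 3 and 56.7, 95.0 and 62.3 CPM in the CSE-KO ones. All CSE-KO libraries lay below all WT libraries. The difference was -0.58 on the log2 scale (SE 0.23), a ratio of 0.67 with a 95% interval of 0.49 to 0.92, and it did not pass over all peaks (unadjusted p = 0.014, adjusted p = 0.62, edgeR). Without CSE-KO replicate 1, the deepest library and the lowest at this peak, the log2 fold change was -0.41 (unadjusted p = 0.11, adjusted p = 0.91, edgeR). The authors' deposited table gives this peak a value of -0.61 (SE 0.25, adjusted p = 0.62).

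The upstream peaks that carry the Mat2a symbol overlapped between groups. The one 20.7 kb upstream (chr6:72459771-72460807) had 46.0, 45.2 and 41.1 CPM in WT against 59.2, 36.5 and 27.5 in CSE-KO. Its WT values were close together and the CSE-KO values fell on both sides of them (log2 fold change -0.05, SE 0.32). The one 34.0 kb upstream (chr6:72473332-72473879) had 46.0, 19.4 and 29.6 CPM in WT against 39.8, 30.7 and 42.0 in CSE-KO, a log2 fold change of 0.17 (SE 0.34). Neither passed (edgeR adjusted p = 0.99 and 0.95). The nearest other coding gene above them is Sh2d6, 52.8 kb and 39.8 kb away, so the name of Mat2a marks the nearest start and not a shown target.

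Mat2b carried the broadest and most counted of the member peaks. Its promoter peak (chr11:40692110-40694648) is 2539 bp wide, wider than 98.9% of 7784 tested promoter peaks, and held a mean of 109 counts per library. The level was 145, 184 and 173 CPM in WT against 157, 145 and 155 in CSE-KO, so the groups overlapped. The log2 fold change was -0.11 (SE 0.17, edgeR adjusted p = 0.93), a ratio of 0.92. The 95% interval of the ratio, 0.73 to 1.16, was the narrowest among the member peaks, so this promoter was the best measured of the set. A peak 245.7 kb downstream of the Mat2b start (chr11:40446643-40447391), 231.9 kb past the end of the gene, had 31.6 ± 6.44 CPM in WT against 27.7 ± 11.5 in CSE-KO (SD, n = 3 each). Its log2 fold change was -0.14 (SE 0.38, edgeR adjusted p = 0.97).

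At Ahcy, the gene of the enzyme that clears S-adenosylhomocysteine, the replicates varied more than the groups. The peak in intron 1 (chr2:155073464-155074458), which also overlaps the long noncoding RNA gene Gm39966, has its centre 536 bp from the start. It had 38.6, 38.8 and 79.0 CPM in WT against 45.7, 65.8 and 60.8 in CSE-KO. WT replicate 3 was the highest of all 6 libraries and the other WT libraries the lowest. Its log2 fold change was 0.08 (SE 0.29, edgeR adjusted p = 0.98), with a 95% interval of the ratio from 0.70 to 1.59.

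The largest difference among the member peaks was at a peak assigned to Ahcyl1, which is related to Ahcy, and it lay away from the promoter. The peak 10.1 kb upstream (chr3:107706019-107707376) is annotated as intergenic and lies 9.46 kb beyond the gene's first base. In RefSeq it falls within the span of the long noncoding RNA gene Gm40121 (chr3:107696225-107812951), and the next coding gene, Csf1, lies 33.7 kb further on. Ahcyl1 is thus the symbol that the deposited table assigns to this peak, and not a shown target. The level was 54.9, 74.3 and 44.4 CPM in WT replicates 1 to 3 and 13.5, 38.0 and 31.9 CPM in the CSE-KO ones. Every CSE-KO library lay below every WT library, and CSE-KO replicate 1, the deepest library, was the lowest. These rest on 37, 23 and 27 counts in WT and 16, 26 and 22 in CSE-KO.

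The means of this peak were 57.9 ± 15.2 CPM in WT against 27.8 ± 12.7 in CSE-KO (SD, n = 3 each). On the log2 scale they differed by -1.08 (SE 0.35), a ratio of 0.47 with a 95% interval of 0.29 to 0.76. It ranked 101 of 16134 peaks by unadjusted p and did not pass over all peaks (unadjusted p = 0.0029, adjusted p = 0.45, edgeR). Without CSE-KO replicate 1 the log2 fold change was -0.68 (unadjusted p = 0.062, adjusted p = 0.91, edgeR). With the other libraries left out in turn it lay between -1.39 and -0.91, with adjusted p from 0.39 to 0.75. The authors' deposited table gives -1.11 (SE 0.38, adjusted p = 0.49).

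The promoter peak of Ahcyl1 (chr3:107695321-107696697) had 159, 84.0 and 135 CPM in WT against 140, 108 and 114 in CSE-KO. It also covers an end of Gm40121, so its signal cannot be assigned to Ahcyl1 alone. The groups overlapped, with WT replicate 2 lowest and WT replicate 1 highest (log2 fold change -0.10, SE 0.19, edgeR adjusted p = 0.95). Another peak lies in intron 1, 14.7 kb downstream of the start (chr3:107681119-107681613), and also overlaps the long noncoding RNA gene Gm52629. It had 8.90, 58.2 and 6.58 CPM in WT against 23.7, 21.9 and 26.1 in CSE-KO. WT replicate 2, the shallowest library, stood far above the other WT libraries there, with 18 counts against 6 and 4. The log2 fold change of this peak was 0.27 (SE 0.51, adjusted p = 0.95) in all libraries and 1.59 without WT replicate 2 (unadjusted p = 0.0070, adjusted p = 0.52, edgeR). Over the 6 libraries the value also moved with the method, from 0.11 with DESeq2 to 1.03 with voom (unadjusted p = 0.043, adjusted p = 0.62), and the authors' deposited table gives 0.0096 (SE 0.92). WT replicate 2 was the highest of the WT libraries on both peaks that flank the promoter and the lowest at the promoter.

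The ratio of the upstream peak to the promoter is given as a description, since it was chosen after the values were seen. Counts of the upstream peak over those of the promoter were 0.35, 0.88 and 0.33 in WT and 0.096, 0.35 and 0.28 in CSE-KO. The mean log2 ratio was -1.10 ± 0.80 in WT and -2.24 ± 0.99 in CSE-KO (SD over 3 libraries each), and the ratios of the groups overlapped.

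**Figure D3:**
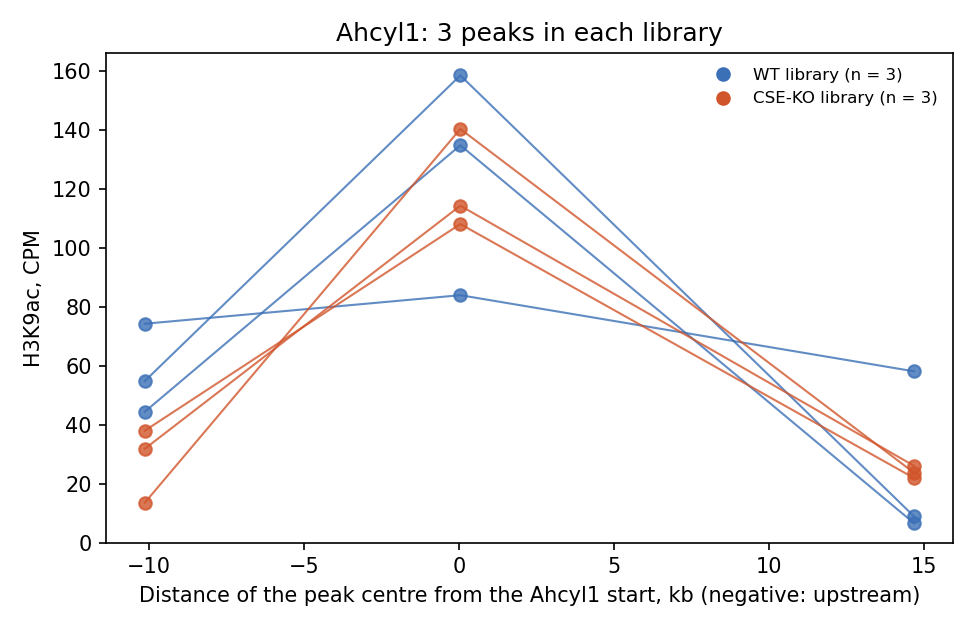
H3K9ac in CPM at the 3 Ahcyl1 peaks against the distance of the peak centre from the start in kb, 1 line per library. The CSE-KO lines lie below the WT lines at the upstream peak, and WT replicate 2 (84.0 CPM at the promoter, 58.2 in intron 1) runs flatter than the others.

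Both enzymes of remethylation through folate overlapped between groups. The Mtr peak (chr13:12256944-12258204, annotated as intron 1 and covering a start) had 63.8, 74.3 and 97.1 CPM in WT against 102, 73.1 and 76.8 in CSE-KO. The log2 fold change was 0.12 (SE 0.23, edgeR adjusted p = 0.95), with a 95% interval of the ratio from 0.79 to 1.50. The Mtrr peak (chr13:68581661-68582697) had 50.4, 61.4 and 62.5 CPM in WT against 54.2, 54.1 and 53.6 in CSE-KO. Its CSE-KO libraries lay close together and inside the WT range (log2 fold change -0.09, SE 0.27, edgeR adjusted p = 0.98). Mtrr shares this peak with Fastkd3, a mitochondrial RNA-binding protein gene that runs the other way. In the promoter table a Fastkd3 start lies 41 bp from a start of Mtrr, so the signal cannot be assigned to one of the genes.

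Levels between genes were compared at the promoter peaks per kb of peak, a scale that allows for peak width. Ahcyl1 was the highest in both groups, with 91.4 ± 27.7 CPM per kb in WT against 87.9 ± 12.4 in CSE-KO (SD, n = 3 each). In WT it was followed by Mat2b (65.9 ± 7.87), Mtr (62.2 ± 13.5), Mtrr (56.0 ± 6.45) and Ahcy (52.4 ± 23.4). In CSE-KO the order was Mtr (66.7 ± 12.7), Mat2b (60.0 ± 2.65), Ahcy (57.7 ± 10.5) and Mtrr (52.0 ± 0.30). Over the 6 libraries every pair of neighbours in the order overlapped in range, from 61.0 to 115 CPM per kb at Ahcyl1 and 50.6 to 81.2 at Mtr down to 48.6 to 60.3 at Mtrr. Against 7784 tested promoter peaks, with a median of 59.7 CPM per kb, Ahcyl1 lay at percentile 88.1, Mtr at 58.7, Mat2b at 56.1, Ahcy at 40.6 and Mtrr at 38.6. The Particl peak over the Mat2a start lay at percentile 54.2.

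**Figure D4:**
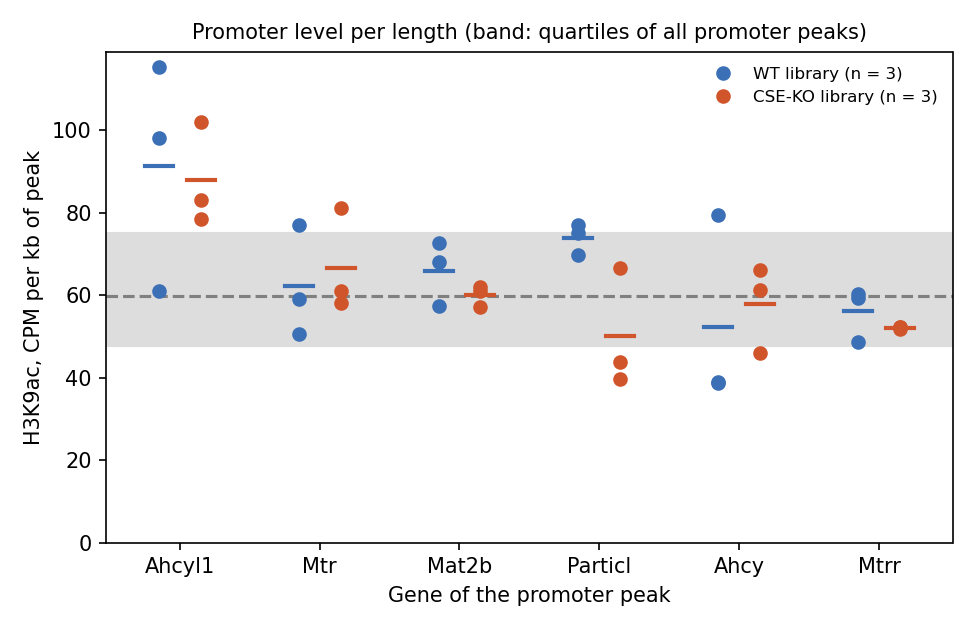
H3K9ac in CPM per kb at the promoter peaks, 1 point per library with a bar at each group mean (n = 3 per group). The grey band spans the quartiles of all tested promoter peaks (47.6 to 75.1) and the dashed line their median, and the Ahcyl1 means lie above the band in both groups.

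With the counts of all peaks of a gene added up, no member passed either. Of 6 members 0 were called and 0 had an unadjusted p under 0.05 (edgeR), as against 0.123% and 6.88% of 10569 genes. The Wald test of DESeq2 and voom also called 0 members, beside 5 and 9 of 10569 genes. Ahcyl1 had 223, 215 and 186 CPM in WT against 179, 168 and 173 in CSE-KO over its 3 peaks. It was the 1 member whose groups did not overlap, as at 12.5% of all genes (log2 fold change -0.25, SE 0.15, edgeR adjusted p = 0.77). This sum includes the upstream peak whose groups lay apart, so it is not a separate result. At the Ahcyl1 promoter and intron 1 peaks the groups overlapped. Mat2b had -0.11 (SE 0.15), Mat2a 0.06 (SE 0.23), Ahcy 0.09 (SE 0.29), Mtr 0.13 (SE 0.23) and Mtrr -0.08 (SE 0.27), with adjusted p from 0.94 to 0.99. The Mat2a sum holds only its upstream peaks. It leaves out the peak over the Mat2a start, which carries the symbol Particl. Both members with peaks of either class were compared in the share of counts at the promoter. This was 84.1% ± 2.29 in WT and 84.9% ± 5.07 in CSE-KO for Mat2b and 60.9% ± 19.1 and 69.9% ± 7.96 for Ahcyl1 (SD over 3 libraries each; exact permutation test, two-sided, p = 0.80 and 0.70, adjusted p = 0.80 for both, smallest possible 0.10). Single libraries moved both differences. For Ahcyl1 it was 9.03 percentage points, and -2.02 without WT replicate 2, 4.47 without CSE-KO replicate 1, 14.2 without WT replicate 1 and 14.9 without WT replicate 3. For Mat2b it was 0.78, which turned to -1.75 when CSE-KO replicate 2 was dropped and moved to 3.32 when CSE-KO replicate 3 was.

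The genes around the cycle, in 9 lists of 115 genes without the members, had 69 tested promoter peaks. None rose or fell (edgeR), where 0.0257% of all tested promoter peaks were called. An unadjusted p under 0.05 was found at 5 of 69, beside 5.55% of all tested promoter peaks, and 30 of 69 lay below 0, beside 53.0%. The median log2 fold change was 0.08, beside -0.02 over all promoter peaks.

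Among folate enzymes and carriers (suppliers of the methyl group to methionine synthase), 0 of 14 passed and the median was 0.11. Slc25a32, the mitochondrial folate carrier, had 47.1 ± 7.96 CPM in WT against 79.4 ± 5.47 in CSE-KO, 0.76 on the log2 scale (SE 0.26; adjusted p = 0.52, edgeR). Tyms, the thymidylate synthase, had 32.6 ± 8.76 and 59.1 ± 13.8 CPM (0.89, SE 0.32, edgeR adjusted p = 0.56). Of cobalamin genes 0 of 5 passed and 0 of 5 lay below 0, with a median of 0.14. Lmbrd1, which takes part in the release of cobalamin from lysosomes, had a log2 fold change of 0.17 (SE 0.19) and Thap11, a transcription factor of cobalamin genes, 0.46 (SE 0.51). In the betaine list Aldh7a1 was the 1 tested promoter (-0.28, SE 0.24). Cbs and Cth, the genes of transsulfuration, were without a peak in this table.

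Genes that use SAM or clear its products did not pass either. Of small-molecule methyltransferases 0 of 6 passed (median log2 fold change -0.25), with Tpmt, the thiopurine methyltransferase, at -0.62 (SE 0.32) and Gamt, which makes creatine, at -0.35 (SE 0.24). Of polyamine and methionine salvage genes 0 of 8 passed (median -0.05). Adi1, an enzyme late in methionine salvage, had 21.2 ± 5.73 CPM in WT against 7.44 ± 4.16 in CSE-KO, -1.55 on the log2 scale (SE 0.57; edgeR adjusted p = 0.59). Mtap, the enzyme that starts methionine salvage, had -0.46 (SE 0.24). Of genes for adenosine clearance and of the AHCY family 0 of 5 passed (median -0.10), with the adenosine kinase gene Adk at -0.45 (SE 0.26) and the adenosine deaminase gene Ada at 0.55 (SE 0.33).

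The list for control of Mat2a RNA and SAM import into mitochondria also held general genes of RNA adenosine methylation. In it 0 of 10 passed and the median log2 fold change was 0.07. Mettl16, the methyltransferase that marks Mat2a RNA, had -0.18 (SE 0.25) and Mettl3, the main RNA adenosine methyltransferase, 0.14 (SE 0.23). Of histone and DNA methyltransferases 0 of 20 passed (median 0.07). Kmt2d, a histone methyltransferase of enhancers, had 196 ± 17.7 CPM in WT against 256 ± 24.0 in CSE-KO, 0.39 on the log2 scale (SE 0.15; edgeR adjusted p = 0.60). Suv39h2, which methylates the same residue of histone H3 that H3K9ac has acetylated, had 30.8 ± 9.57 and 14.0 ± 8.48 CPM (-1.06, SE 0.45, edgeR adjusted p = 0.64).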

How the data were processed

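H3K9ac CUT&RUN libraries of isolated mouse lung endothelial cells, 3 WT and 3 CSE-KO, were grouped by their titles. Per the submitters' processing notes, STAR 2.7.11a, Trimmomatic 0.39, featureCounts, Picard 3.1.1 and DESeq2 1.36.0 were used. Their settings, the calling of peaks and the fate of multi-mapping reads were not given in the sources used here. As one file, the authors deposited 1 table of raw counts per peak and library, with normalized values, RPKM and their own log2 fold change and p-values per the file headers. The notes name mm39, but 51.2% of 17671 peaks, among them peaks of 4 members, place their gene's start within 10 bp of its outermost base in RefSeq on GRCm38.p6, the build used here. The table holds 75.0% of the numbered peaks, so low peaks may be missing.

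The group effect was tested in R 4.3.3 by the quasi-likelihood test of edgeR 4.0.16 (glmQLFit, glmQLFTest; two-sided) after filterByExpr (minimum count 10) and TMM scaling, with Benjamini-Hochberg adjustment over 16134 peaks and a threshold of 0.05. The filter removed 1767 peaks. SE came from the F statistic. Counts were also summed per symbol (10569 genes tested). A peak was called promoter if annotated so or centred at most 1 kb from a start. The procedure was tested on simulated data. Alternatives were RLE factors, library size alone, DESeq2 1.42.0, voom (limma 3.58.1), a replicate block, a mean count of 50 or more, no filter, library totals implied by RPKM, a promoter distance of 3 kb, and each library left out. Replicates of a group differed beyond sampling noise (chi-square over its degrees of freedom 1.87 to 2.15). Named are all members and, per list, up to 2 genes with the smallest unadjusted p at their most counted promoter peak. A further gene alike to a member is not reported here. Members and lists were chosen with earlier results of these data known.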

Additional observations from a re-analysis of the deposited data

How the results depend on the processing

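No member peak and no member gene on summed counts was called under any of the alternatives that gave a value. The count of called peaks over the table was 14, and 7 with the Wald test of DESeq2, 8 with a mean count of 50 or more, and 6 (without CSE-KO replicate 1) to 13 with 1 library left out (7 without WT replicate 3, 8 without CSE-KO replicate 3). The count of called genes on summed counts was 13, and 5, 8 and 5 to 9 in the same order, with 7 without WT replicate 1, 6 without WT 3, 8 without CSE-KO 1 or CSE-KO 2 and 5 without CSE-KO 3. A mean count of 50 or more left 3 member peaks to test.

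Among the log2 fold changes the sign turned only when a library was left out, at peaks or genes whose values over all libraries were 0.27 or less in size. They then ran from -0.46 to 0.16 at Mat2a 20.7 kb upstream, -0.016 to 0.55 at Mat2a 34.0 kb upstream, -0.43 to 0.10 at Mat2b 245.7 kb downstream, -0.15 to 0.54 at Ahcy, -0.23 to 1.59 at Ahcyl1 intron 1, -0.27 to 0.097 at the Ahcyl1 promoter and -0.067 to 0.33 at Mtr. On summed counts it ran from -0.17 to 0.24 for Mat2a, -0.14 to 0.56 for Ahcy and -0.059 to 0.34 for Mtr. The cause was not tested. The signs at the Mat2b and Mtrr promoters, the Ahcyl1 upstream peak (adjusted p 0.31 to 1.00) and the Particl peak (0.49 to 1.00) were the same in every alternative that gave a value.

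With the replicate number as a block, 15 peaks and 17 genes were called, and the Ahcyl1 upstream peak had -1.15 (adjusted p = 0.31, edgeR). Deviations of libraries with the same number correlated at 0.065, 0.014 and 0.0051, and not every library correlated best with its own number, so the numbers are not taken to pair the libraries. At 14.8 to 109 mean counts per library and peak, the SE at the members was 0.17 to 0.51. It holds both counting error and the spread between libraries, and their parts were not separated.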

Other observations

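The promoter peaks most like those of the members over the 6 libraries were found by the root mean square difference of log2 CPM after centring each peak on its mean, among 7780 promoter peaks of other genes. They were Mrpl1 (0.037) for Mat2b, Plod2 (0.10) and Exosc2 (0.10) for Ahcy, Spata5 (0.065) and Cnnm2 (0.067) for Ahcyl1, Glul (0.073) and Pex10 (0.073) for Mtr, and Arpc3 (0.039) and Irgm1 (0.045) for Mtrr. The median difference over all candidates was between 0.28 (Mtrr) and 0.46 (Ahcy). With 6 libraries that share their depth differences, this is a description of these libraries.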
